A study of Mus musculus with 2 samples.

Results

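The lymphocyte receptors TIGIT, CD96, CD226 and PVRIG and the nectin-type ligands PVR and nectin-1 to nectin-4 were followed by their gene symbols, Tigit, Cd96, Cd226, Pvrig, Pvr, Nectin1, Nectin2, Nectin3 and Nectin4. All 9 symbols were found among the 35602 of the table. The material was mouse breast tumour tissue, 1 library from tumour after a PD-1 inhibitor given into the peritoneum together with acupuncture, and 1 library from tumour after the same inhibitor without acupuncture. The inhibitor was thus common to both groups, and a tumour without it was not analysed here. Strain, sex, age, tumour line, acupuncture points, treatment times and the number of animals behind each library were not stated in the labels. Messenger RNA was sequenced to 60752043 counts with acupuncture and 105728292 counts without. With 1 library per group there is no replicate check, no p-value can be given, and every interval covers counting error only.

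These genes form a set of opposed signals between lymphocytes and the cells they touch. CD226 on T and NK cells is activating and binds PVR and nectin-2, while TIGIT is inhibitory, binds the same ligands and competes with CD226 for them. CD96 binds PVR and, in mice, nectin-1. PVRIG is an inhibitory receptor for nectin-2. The nectins also hold epithelial cells together at adherens junctions, and PVR is often abundant on tumour and myeloid cells.

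The receptors separated into a pair that was much higher with acupuncture and a pair that was not. Cd96 and Cd226 were the members at least 2-fold higher, 2 of 4 receptors, and 0 of 4 were at least 2-fold lower. Of all 18687 genes whose counts summed to 20 or more, 9.21% met the same rule upward and 4.90% met it downward, the rule being a ratio of at least 2-fold whose 95% counting interval excludes 1. Tigit and Pvrig stood below 1 but within the 2-fold limits. The median log2 ratio of the 4 receptors, 1.22, lies in the gap between the pairs, against 0.0003 over all tested genes.

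Cd96, which encodes an immunoglobulin-superfamily receptor of T and NK cells, had 230 counts with acupuncture and 29 counts with the PD-1 inhibitor alone. Its level was 3.66 scaled CPM with acupuncture (95% Poisson interval 3.20 to 4.16) and 0.284 scaled CPM without (0.190 to 0.408), where scaled CPM are counts per 1000000 of the TMM-scaled library. The ratio was 12.9 (8.72 to 19.6), and 0.706% of tested genes had a higher log2 ratio. Cd226 had 312 counts with acupuncture and 63 counts without. That made 4.96 scaled CPM with acupuncture (4.42 to 5.54) and 0.617 scaled CPM without (0.474 to 0.790), a ratio of 8.04 (6.11 to 10.7). Both genes have few counts in the library without acupuncture, and among the 4096 genes with combined counts of 50 to 500, 19.5% were at least 2-fold higher and 9.89% at least 2-fold lower.

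Tigit, the inhibitory partner of Cd226, did not follow it. It had 674 counts with acupuncture and 1561 counts with the PD-1 inhibitor alone, or 10.7 scaled CPM (9.92 to 11.6) and 15.3 scaled CPM (14.5 to 16.1). The ratio was 0.701 (0.639 to 0.767), on the other side of 1 from Cd96 and Cd226. Pvrig, the nectin-2 receptor, was the scarcest with acupuncture, at 27 counts against 73 counts without, or 0.429 scaled CPM (0.283 to 0.624) and 0.715 scaled CPM (0.561 to 0.899). Its ratio of 0.600 had a wide interval (0.371 to 0.945), which reached past 1 when libraries were scaled by total counts.

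**Figure D1:**
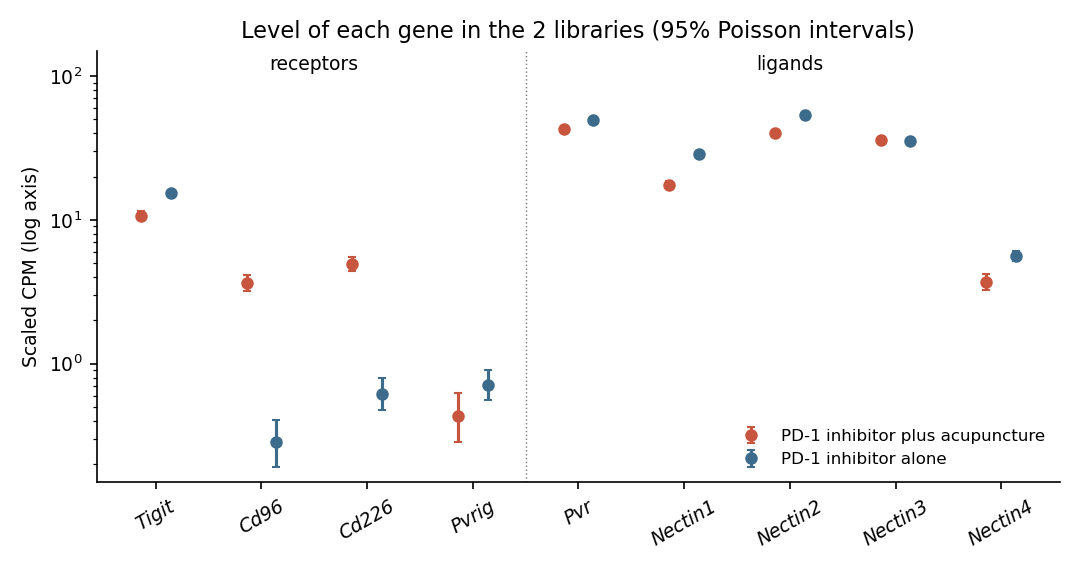
Scaled CPM (log axis) of each gene in the library with acupuncture (red, left) and the library with the PD-1 inhibitor alone (blue, right), with 95% Poisson intervals from the counts of 1 library each. Cd96 and Cd226 are far higher with acupuncture, at 3.66 and 4.96 scaled CPM against 0.284 and 0.617, while Tigit, Pvrig and 4 of the 5 ligands are lower.

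The upstream flanks of Cd96 and Tigit are shown because both genes lie on chromosome 16 and encode receptors for PVR, yet stood on opposite sides of 1. They are the 250 bases before the RefSeq start of each gene in GRCm38.p6, given 5′ to 3′ on the strand of the gene, which is the minus strand for both. Cd96 lies at chr16:46120249-46120498 and Tigit at chr16:43664185-43664434. Capitals mark matches, on either strand, to a RUNX core (TGTGGT, or ACCACA on the other strand) and to a gamma-activated sequence of the STAT type (TTCNNNGAA).
Cd96: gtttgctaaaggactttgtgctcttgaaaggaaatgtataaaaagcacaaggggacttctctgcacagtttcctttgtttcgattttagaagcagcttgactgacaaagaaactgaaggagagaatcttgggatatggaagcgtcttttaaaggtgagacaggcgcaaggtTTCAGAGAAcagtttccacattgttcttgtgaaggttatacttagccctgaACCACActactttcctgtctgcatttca
Tigit: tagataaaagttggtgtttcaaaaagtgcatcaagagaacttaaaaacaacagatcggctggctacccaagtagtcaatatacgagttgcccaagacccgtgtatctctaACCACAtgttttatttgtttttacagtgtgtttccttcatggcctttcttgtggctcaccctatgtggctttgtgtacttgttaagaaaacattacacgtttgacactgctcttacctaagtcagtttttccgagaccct
Cd96 held 1 RUNX core and 1 STAT-type match, TTCAGAGAA, with no overlap between them, and Tigit held 1 RUNX core and 0 STAT-type matches. Of 32851 mouse promoter windows of the same length, 14.05% held the RUNX core and 7.02% the STAT-type sequence. A T-box core (AGGTGT, or ACACCT) was also searched, and it was found in 0 of these 2 windows and in 11.8% of all windows. A match describes letters in a window and shows no binding.

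The counts of Tigit carry a limit from a neighbouring gene. The RefSeq gene span of Tigit in GRCm38.p6 overlaps that of Zbtb20, a zinc-finger repressor gene on the opposite strand, by 8256 bases, whereas the GENCODE spans of the same genes overlap by 0 bases. RefSeq lists 95.9% of the symbols in the table and GENCODE M21 lists 72.6%, and the labels do not state whether counting used strand. Zbtb20 had 1951 counts with acupuncture and 3614 counts without, a ratio of 0.876 (0.829 to 0.926). Relative to Zbtb20, Tigit was at 0.800 times its level without acupuncture (0.718 to 0.890). How many Tigit counts came from the shared stretch was not tested. The RefSeq span of Pvrig likewise overlaps the pseudogene Pvrig-ps by 1381 bases on the same strand, whereas their GENCODE spans overlap by 0 bases. Reads of Pvrig may thus be shared, which was not tested. The span of Cd96 overlaps the pseudogene Gm50487 by 675 bases, and no gene overlapped Cd226, Nectin3 or Nectin4. Nectin1 overlaps the noncoding genes Gm46108 by 52137 bases and Gm30015 by 1376 bases. Nectin2 overlaps the noncoding genes Gm38955 by 3509 bases and Gm34744 by 4 bases, and Pvr the pseudogene Gm16184 by 606 bases. Pvrig-ps, Gm50487, Gm46108 and Gm16184 were not among the counted symbols. With and without acupuncture, Gm30015 had 1 and 0 counts, Gm38955 13 and 27, and Gm34744 24 and 42.

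Among the 4 receptors the make-up of the counts differed between the libraries. Tigit made up 54.2% of their 1243 counts with acupuncture (exact Clopper-Pearson 95% interval 51.4 to 57.0) and 90.4% of 1726 counts without (89.0 to 91.8). Cd226 made up 25.1% with acupuncture (22.7 to 27.6) and 3.65% without (2.82 to 4.65). Cd96 made up 18.5% with acupuncture (16.4 to 20.8) and 1.68% without (1.13 to 2.404). With Tigit left out, the other receptors together had 569 counts with acupuncture and 165 counts without, a ratio of 5.60 (4.70 to 6.70). In that set Pvrig held 4.75% of counts with acupuncture and 44.2% without.

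Ratios between receptors of 1 library do not depend on how the libraries are scaled. The library with acupuncture had 2.16 Tigit counts for each Cd226 count, and the library with the PD-1 inhibitor alone had 24.8. The Tigit to Cd226 count ratio was thus 11.5-fold lower with acupuncture (8.58 to 15.5). How far it rests on counts from the stretch that Tigit shares with Zbtb20 was not tested. With the PD-1 inhibitor alone, Tigit stood at 16.6 scaled CPM per kilobase, against at most 3.58 for 16 T cell genes. Pvrig to Cd226 was 13.4-fold lower (7.75 to 23.3), at 0.0865 with acupuncture and 1.16 without. Cd96 to Cd226 was 0.737 with acupuncture and 0.460 without, a ratio of 1.60 whose interval (0.979 to 2.67) includes 1, so a difference between Cd96 and Cd226 was not detectable at this depth.

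**Figure D2:**
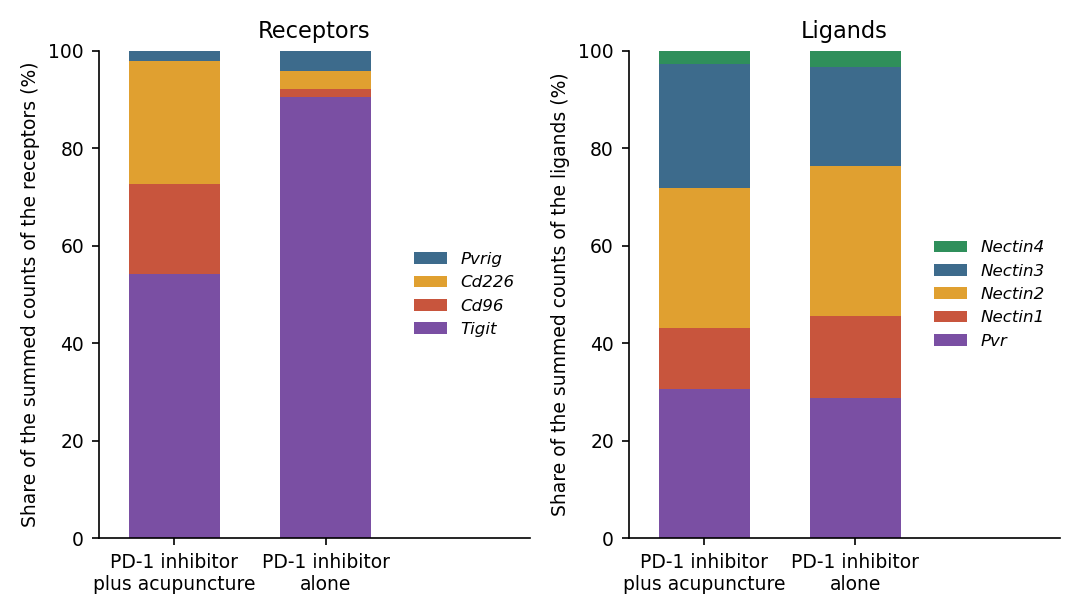
Share (%) of the summed counts of the 4 receptors (left) and of the 5 ligands (right) taken by each gene, as stacked bars for the library with acupuncture and the library with the PD-1 inhibitor alone. Tigit takes 54.2% of receptor counts with acupuncture and 90.4% without, while the ligand shares move by a few points.

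T cell genes as a whole were higher in the same library. All 16 T cell markers were at least 2-fold higher, with 216 summed scaled CPM with acupuncture and 37.7 without, a ratio of 5.74. NK cell markers had 6 of 11 at least 2-fold higher, beside 9.21% of all tested genes, and 3 between. The other 2, Klra4 and Klra8, were at 0 counts in both libraries. That allows up to 0.0477 scaled CPM with acupuncture and 0.0294 without (3 counts per library). The NK cell list had summed scaled CPM of 24.7 with acupuncture and 11.6 without. The defining NK cell receptor Ncr1 was at 1.62 scaled CPM with acupuncture and 1.01 without, a ratio of 1.61 (1.21 to 2.13). In bulk tissue, a different number of cells and a different amount of RNA per cell cannot be told apart.

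Set against the summed T cell list, Cd96 and Cd226 were higher, and Tigit and Pvrig were far lower. Single T cell genes had ratios from 3.88 to 16.3, the highest being Themis. Cd96 at 12.9 and Cd226 at 8.04 lay within that range. Per T cell marker count, Cd226 with acupuncture was at 1.40 times its level without (exact conditional interval 1.06 to 1.87). Per count of the CD3 chains Cd3d, Cd3e and Cd3g it was at 1.23 times (0.926 to 1.67), an interval that includes 1. Cd96 was at 2.24 times its level per T cell marker count (1.52 to 3.43). Tigit was 8.20-fold lower on that base (7.43 to 9.05) and Pvrig 9.57-fold lower (6.07 to 15.5). The limit on Tigit counts from the overlap with Zbtb20 applies here too. Against the NK cell list the ratios were 6.03 for Cd96 (4.05 to 9.28) and 3.77 for Cd226 (2.83 to 5.07), while Tigit was 3.04-fold lower (2.70 to 3.43).

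TIGIT is abundant on regulatory T cells, and their list differed less between the libraries than the T cell list. Of 8 regulatory T cell genes 2 were at least 2-fold higher, 0 lower and 6 between, beside 9.21% higher and 4.90% lower of all tested genes. They had 62.3 summed scaled CPM with acupuncture and 61.2 without. Foxp3, their lineage factor, had 379 counts with acupuncture and 393 counts without, a ratio of 1.56 (1.36 to 1.81). The interleukin-2 receptor chain Il2ra had a ratio of 2.24 (2.002 to 2.51), Ccr8 2.18, Ctla4 1.49, Ikzf4 1.39 and Tnfrsf18 1.25. Below 1 were Ikzf2, the factor Helios, at 0.699 (0.641 to 0.762) and the TGF-beta anchor Lrrc32 at 0.691 (0.642 to 0.744). Ikzf2 and Lrrc32 had the most counts of the list, so they weigh most in its sum. Per Foxp3 count Tigit was 2.23-fold lower with acupuncture (1.88 to 2.65).

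Markers of B cells, lymph node stroma, fat and skeletal muscle were also higher with acupuncture. Other summed lists were not, with ratios of 0.752 for endothelial cells, 0.907 for macrophages and monocytes and 0.886 for dendritic cells. All 11 B cell genes were at least 2-fold higher, with 154 summed scaled CPM with acupuncture and 5.01 without, and Fcmr at 0 counts without. All 7 genes of lymph node stroma were higher, at 191 and 1.67 summed scaled CPM, with Chst4 at 0 counts without acupuncture, and Cr2 belongs to this list and to the B cell list. Fat had 11 of 12 genes higher, at 1980 summed scaled CPM with acupuncture and 515 without, and skeletal muscle had 12 of 12, at 2229 and 235. The part of B cells, lymph node stroma, fat and muscle in the levels of Cd96 and Cd226 was not tested.

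**Figure D3:**
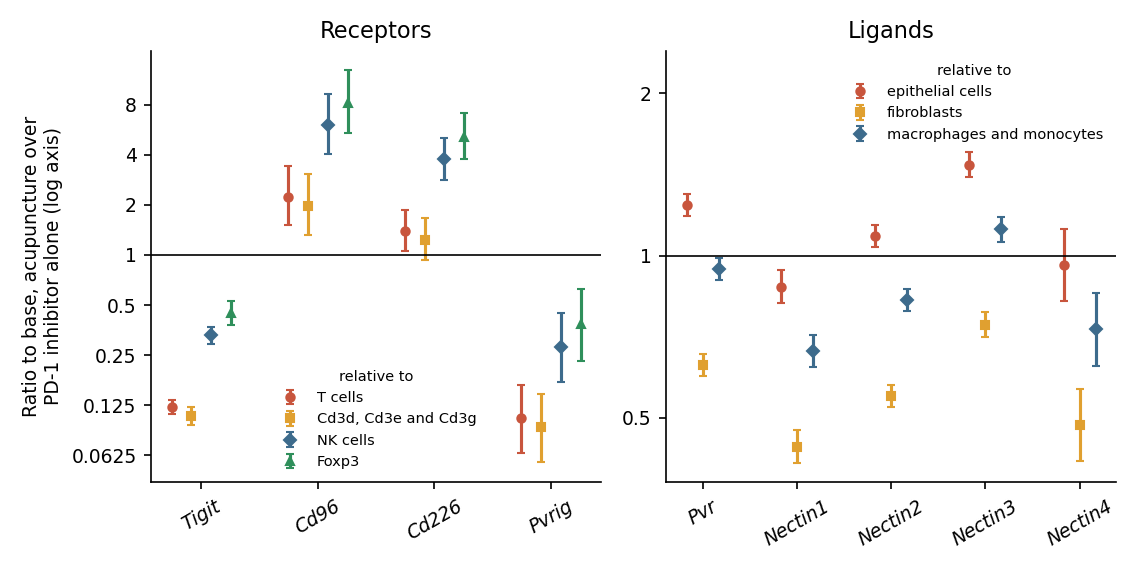
Ratio of each gene to the summed counts of a marker list (or to Foxp3), with acupuncture over with the PD-1 inhibitor alone, on a log axis with 95% counting intervals from 1 library per group. Against the T cell list Cd226 lies at 1.40 and Cd96 at 2.24, with Tigit and Pvrig far below 1, and the ligands lie on different sides of 1 depending on the list.

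The ligands differed far less than Cd96 and Cd226. Of 5 ligands, 0 were at least 2-fold higher and 0 at least 2-fold lower, with a median log2 ratio of -0.41. Over all tested genes the shares were 9.21% and 4.90%, so 0 of 5 does not set the ligands apart. Below 1 were 4 of them, with counting intervals that exclude 1 under each of the 4 library scalings tried. Together the 5 had 8780 counts with acupuncture and 17643 counts without, or 140 and 173 scaled CPM, which is 1.24-fold lower.

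Pvr encodes the ligand shared by Tigit, Cd96 and Cd226. It had 2682 counts with acupuncture and 5078 counts without, or 42.6 scaled CPM (41.0 to 44.3) and 49.7 scaled CPM (48.4 to 51.1), a ratio of 0.857 (0.817 to 0.898). Nectin2, the ligand of Pvrig and the second ligand of Cd226, had 2521 counts with acupuncture and 5453 counts without, at 40.1 scaled CPM (38.5 to 41.7) and 53.4 scaled CPM (52.0 to 54.9), a ratio of 0.750 (0.715 to 0.787). Each was thus lower with acupuncture, Nectin2 more than Pvr. The Pvr to Nectin2 count ratio was 1.06 with acupuncture and 0.931 without, a ratio of 1.14 (1.07 to 1.22). Both genes lie on chromosome 7.

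Nectin1, the second ligand of CD96 in mice and an adherens-junction molecule, was the lowest ligand by ratio. It had 1099 counts with acupuncture and 2954 counts without, at 17.5 scaled CPM (16.4 to 18.5) and 28.9 scaled CPM (27.9 to 29.999), a ratio of 0.604 (0.563 to 0.647). Of all tested genes, 8.58% had a lower log2 ratio than Nectin1. Nectin4, an epithelial nectin that in humans also binds TIGIT, was the scarcest ligand, with 234 counts with acupuncture and 573 counts without. Its levels were 3.72 scaled CPM with acupuncture (3.26 to 4.23) and 5.61 scaled CPM without (5.16 to 6.09), a ratio of 0.663 (0.567 to 0.773).

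Nectin3, which binds nectin-1 across cell contacts, was the exception among the ligands. With 2244 counts with acupuncture and 3585 counts without, it stood at 35.7 scaled CPM (34.2 to 37.2) and 35.1 scaled CPM (34.0 to 36.3). The ratio was 1.02 (0.963 to 1.07), an interval that includes 1 except under total-count scaling. Its share of ligand counts was 25.6% with acupuncture (24.6 to 26.5) and 20.3% without (19.7 to 20.9), while Nectin1 held 12.5% with acupuncture (11.8 to 13.2) and 16.7% without (16.2 to 17.3).

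**Figure D4:**
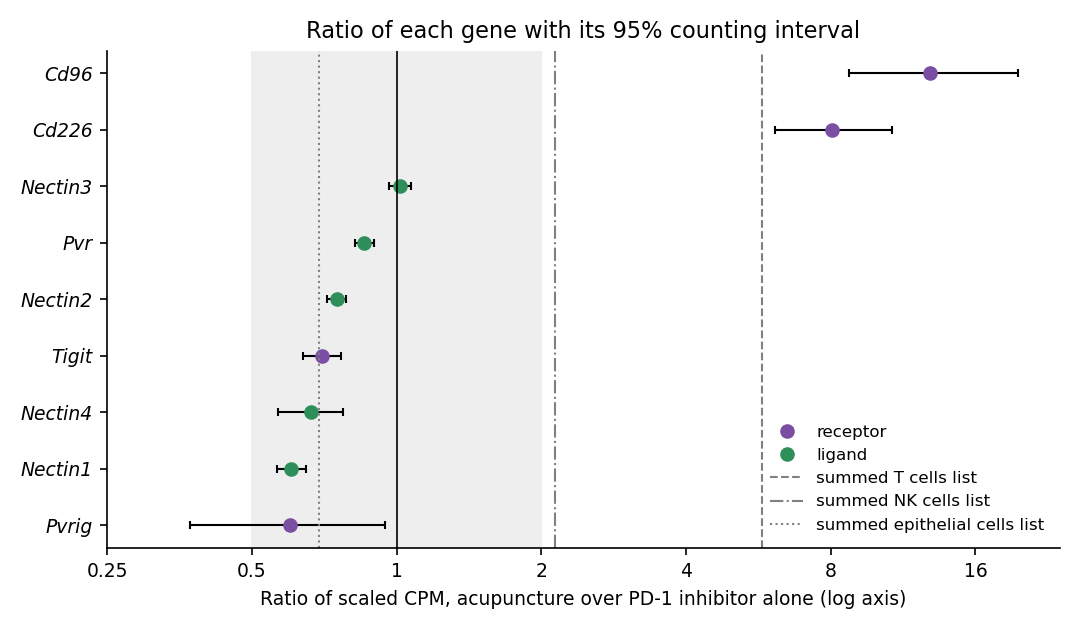
Ratio of scaled CPM, with acupuncture over with the PD-1 inhibitor alone (log axis), for each receptor (purple) and ligand (green) with 95% counting intervals, ordered by ratio. The grey band marks less than 2-fold and the vertical lines mark the summed T cell, NK cell and epithelial lists. Cd96 at 12.9 and Cd226 at 8.04 lie to the right of the T cell line at 5.74. Single T cell genes, not drawn, ran from 3.88 to 16.3. Tigit at 0.701 lies near the epithelial line at 0.689.

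In the order of ratios, Pvrig, Nectin1, Nectin4, Tigit and Nectin2 came first. Neighbours in that run did not differ beyond counting error, with ratios between neighbours of 1.01 for Nectin1 over Pvrig (0.635 to 1.64), 1.10 for Nectin4 over Nectin1 (0.924 to 1.30), 1.06 for Tigit over Nectin4 (0.883 to 1.27) and 1.07 for Nectin2 over Tigit (0.966 to 1.19). Pvr came next and lay above Nectin2, and Nectin3 lay above Pvr by 1.19 times (1.10 to 1.27). A wide step followed, since Cd226 over Nectin3 was 7.91 (5.98 to 10.6).

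Most of the listed epithelial markers were lower with acupuncture, with a median log2 ratio of -0.55. Of 14 epithelial genes 3 were at least 2-fold lower, 0 higher and 11 between, beside 4.90% lower and 9.21% higher of all tested genes. Those 3 were Krt5 at a ratio of 0.156, Krt19 at 0.305 and Cldn4 at 0.448. The list had 3068 summed scaled CPM with acupuncture and 4452 without, and none of its genes was at 0 counts. Cldn7, a tight-junction claudin, stood on the other side of 1, at a ratio of 1.36 (1.27 to 1.46), and the epithelial factor Elf3 at 1.05 (0.952 to 1.16). The simple-epithelium keratins Krt8 and Krt18, at 1060 and 988 scaled CPM with acupuncture and 1564 and 1432 without, show epithelial tissue in each library. Per epithelial count, Pvr was at 1.24 times its level without acupuncture (1.19 to 1.30), Nectin2 at 1.09 times (1.04 to 1.14), Nectin3 at 1.47 times (1.40 to 1.55), Nectin4 at 0.962 times (0.822 to 1.12) and Nectin1 at 0.876 times (0.817 to 0.939). The epithelial sum is mostly Krt8 and Krt18 counts, with ratios of 0.678 and 0.690. Its genes ran from 0.156 to 1.36, so these values depend on that weighting. Epcam, at 0.811, lay above Nectin2 at 0.750. Per fibroblast count all 5 ligands were below 1, from 0.442 for Nectin1 to 0.744 for Nectin3. That fibroblast sum is mostly collagen counts, with Col3a1 at a ratio of 1.57 and Col1a1 at 1.01. Its genes ran from 0.855 to 2.34, so these values depend on that weighting. Per macrophage and monocyte count the ligands ran from 0.665 for Nectin1 to 1.12 for Nectin3. The cells that made each ligand were not tested.

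Per transcript length, the ligands Pvr and Nectin2 and the receptor Tigit were the most abundant members in each library. With acupuncture Pvr stood at 14.7 scaled CPM per kilobase, Nectin2 at 14.6 and Tigit at 11.7, and with the PD-1 inhibitor alone Nectin2 stood at 19.5, Pvr at 17.1 and Tigit at 16.6. At the other end, Pvrig was last with acupuncture, at 0.397 scaled CPM per kilobase, whereas Cd96 and Cd226 were last without, at 0.130 and 0.137. Neighbours whose intervals overlapped were Pvr with Nectin2 and Cd226 with Nectin4 in the library with acupuncture, and Pvr with Tigit and Cd226 with Cd96 in the other. Tigit per kilobase with the PD-1 inhibitor alone lay above all 16 T cell markers, which ran there from 0.0598 to 3.58, and with acupuncture it lay within their range of 0.973 to 19.0. Lengths are those of the longest coding transcript in GENCODE M21, 919 bases for Tigit and 4494 for Cd226, so these levels depend on which transcript is counted.

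Genes that act with the nectins and their receptors were mostly between the limits, as were most tested genes. Of 15 nectin-like molecules and junction partners 1 was at least 2-fold higher and 0 lower, against 9.21% and 4.90% of all tested genes. Their median log2 ratio was -0.11. Crtam, a lymphocyte receptor for the nectin-like molecule Cadm1, had 82 counts with acupuncture and 41 counts without, a ratio of 3.25 (2.20 to 4.84). Its ligand gene Cadm1 was at 4.42 scaled CPM with acupuncture and 3.48 without, a ratio of 1.27 (1.08 to 1.49). Another nectin-like adhesion gene, Cadm3, was at 24.8 scaled CPM with acupuncture and 13.6 without, a ratio of 1.82 (1.70 to 1.96). Afdn, the actin linker that binds nectin tails, was at 0.926 (0.901 to 0.951), and the catenins Ctnnb1 and Ctnna1 were at 0.769 and 0.848.

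The median log2 ratio of 14 signalling genes used by these receptors was 0.03. Of them 2 were at least 2-fold higher and 0 lower, beside 9.21% and 4.90% of all tested genes. Those higher were Lck and Prkcq. Lck, the Src-family kinase of T cells, which the T cell list also holds, had a ratio of 4.93 (4.55 to 5.34). The kinase gene Prkcq had a ratio of 5.69 (4.88 to 6.66). The inositol phosphatase Inpp5d, known as SHIP1 and recruited by TIGIT, was at 0.832 (0.795 to 0.870). The integrin chains of LFA-1, which pairs with CD226 at cell contacts, stood at 1.27 for Itgal (1.20 to 1.34) and 1.07 for Itgb2 (1.04 to 1.10). The phosphatase Ptpn11 and the phospholipase Plcg2, the most abundant of the list, were at 0.926 and 0.758.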

How the data were processed

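The table deposited by the authors holds unnormalized whole-number counts, 1 row per gene symbol and 1 column per library. Per the labels' protocols, total RNA entered a SMARTer mRNA library kit, and the submitters' processing notes name the builds GRCm39 and mm39. No aligner, counting program, annotation or strand setting is given in the sources used here. Totals were 60752043 counts with acupuncture and 105728292 counts without, 1.74 times as many.

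Libraries were scaled with TMM factors (1.04 with acupuncture, 0.966 without) from edgeR 4.0.16 in R 4.3.3, over genes whose counts summed to 20 or more. Ratios carry exact Clopper-Pearson 95% intervals from the split of the combined count, and log2 ratios a prior count of 2. A gene was listed when its ratio passed 2-fold and the interval excluded 1. Ratios between 2 genes or lists carry exact conditional intervals, except against the epithelial, fibroblast and macrophage lists, whose own counting error was left out. With 1 library per group no test was possible. The scripts were tested on simulated data.

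The members and the 17 lists (168 entries, all found, with 1 further gene not reported here) were chosen with earlier results of these data known. Named list genes are the 2 most abundant and the 2 with the largest log2 ratio of a list (combined count of at least 100), though not all are printed, and the genes nearest to each receptor in log2 ratio. Ncr1, Inpp5d, Itgal, Itgb2, Cadm1, Afdn, Pdcd1, Cldn7, Elf3 and Zbtb20 were chosen after their values were seen. So were Ccr8, Ctla4, Ikzf4, Tnfrsf18, Lag3, Cd244a, Klrb1c, Epcam and Cldn4. Promoter sequences come from RefSeq in GRCm38.p6, which had entries for 6 of 9 members, and no other coordinates are printed because the counts follow another build. No molecular identifiers are named in the labels, so reads need not be independent molecules. Other scalings (DESeq2 1.42.0 size factors, total counts, upper quartile), prior counts, count minimums, limits and bases were tried.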

Additional observations from a re-analysis of the deposited data

How the results depend on the processing

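The number of receptors at least 2-fold higher (2) was the same under all 8 alternatives tried, and the number at least 2-fold lower (0) under 7 of them. A 1.5-fold limit, a wider rule by construction, listed 1 receptor and 2 ligands as lower. Over all genes, the higher and lower counts of 1721 and 916 became 1055 and 500 with a combined count of at least 100, 678 and 262 with a 4-fold limit, and 2679 and 1933 with a 1.5-fold limit, each a change in how many genes can qualify. Total-count scaling moved the median log2 ratio of all tested genes by about 0.10, and with it the ligand median to -0.31, while each member kept its direction.

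The base mattered more. Against the NK cell list, in place of the T cell list, the ratios were 0.329 for Tigit, 6.03 for Cd96, 3.77 for Cd226 and 0.281 for Pvrig. Against Foxp3, a base added after the data were seen, they were 0.448, 8.22, 5.14 and 0.384 in that order, and Tigit against the CD3 chains was 0.108. Ligands above 1 against epithelial genes were below 1 against fibroblast genes, at 0.628 for Pvr, 0.550 for Nectin2 and 0.744 for Nectin3. Pvr at 0.945 and Nectin2 at 0.827 were also below 1 against macrophage and monocyte genes, where Nectin3 was at 1.12. Nectin1 was at 0.442 and 0.665, and Nectin4 at 0.486 and 0.730, against fibroblast genes and macrophage and monocyte genes. The cause was not tested. No paired analysis was possible because each group has 1 library. Depth limits Pvrig and Cd96 most, with 27 and 29 counts in their lower library.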

Other observations

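Other inhibitory receptors of lymphocytes were spread over a range of ratios. Of 8, 2 were at least 2-fold higher with acupuncture and 0 lower, against 9.21% and 4.90% of all tested genes. The median log2 ratio was 0.52. Btla, which B and T cells share, was at 11.4 scaled CPM with acupuncture and 1.77 without, a ratio of 6.44 (5.46 to 7.62), and the NK and T cell receptor Cd160 had 100 counts with acupuncture and 31 counts without, a ratio of 5.23 (3.47 to 8.10). Havcr2, the gene of TIM-3, which macrophages and dendritic cells also make, had a ratio of 0.750 (0.679 to 0.827), close to that of Tigit at 0.701. The most abundant of them, Vsir, which myeloid cells share, had a ratio of 0.816 (0.790 to 0.843). Pdcd1, the target of the inhibitor given in both groups, lay between these genes at 1.66 (1.39 to 1.98). So did Ctla4 at 1.49, Lag3 at 1.38 and Cd244a at 0.970.

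Over the 2 libraries, likeness is only nearness of the log2 ratio among the listed genes. The genes nearest to Tigit (-0.51) were Ikzf2 (-0.52) and the integrin chain Itgax (-0.50), and those nearest to Pvrig (-0.71) were the myeloid integrin chain Itgam (-0.76) and the endothelial mucin Emcn (-0.64). The genes nearest to Cd226 (2.96) were the CD8 chain Cd8a (2.87) and the muscle myosin Myh2 (2.86). Nearest to Cd96 (3.58) were the muscle gene Myoz1 (3.56) and the B cell receptor Cd22 (3.67).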
